A study of Mus musculus with 6 samples.

Results

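The 6 genes Npy2r, Gpr128, Tmem27, Serpinb5, Slc35f1 and E330017A01Rik were described here in urethane-induced mouse lung tumours and control lung, out of 33924 gene names in the count table. They were taken by name as genes with almost no reads in control lung and a mean of at least 10 CPM (read counts relative to library size, here after TMM scaling) in the tumours. They were chosen by the read counts of the same 6 libraries, so the difference between tumours and control lung is a description of these genes and was not tested. Bulk RNA was sequenced from FVB/NJ mice, an inbred strain prone to chemically induced lung tumours. The tumour group (replicates 1, 2 and 4) holds lung tumours induced by urethane, a chemical carcinogen given by intraperitoneal injection at 1 g per kg. The control group (replicates 1, 2 and 3) holds normal lung of mice treated with saline, and both groups were taken at 6 months. The labels do not give the age or sex of the mice, how tumour was separated from surrounding lung, or whether each library came from its own animal, so p-values describe how far these libraries spread, which may be technical in part.

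The 6 genes are unrelated in function. Npy2r encodes a receptor for neuropeptide Y and peptide YY that couples to inhibitory G proteins and is best known from neurons, among them sensory neurons of the vagus nerve that reach the lung. Gpr128 (now Adgrg7) encodes an orphan adhesion G protein-coupled receptor described in mouse mainly from the intestine. Tmem27 (now Cltrn) encodes collectrin, a membrane protein that brings neutral amino acid transporters to the cell surface in kidney tubules and is also found in pancreatic beta cells. Serpinb5 encodes maspin, a clade B serpin of epithelial cells that does not inhibit proteases. Slc35f1 belongs to the SLC35 family, whose best known members carry nucleotide sugars into the Golgi and endoplasmic reticulum, and is itself known mainly from brain. E330017A01Rik is named Ftdc2, a ferritin domain containing gene, in RefSeq, a name taken from its sequence. Urethane tumours of mouse lung are adenomas and carcinomas that keep many features of alveolar type 2 (AT2) cells, which make lung surfactant.

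Promoter windows are shown for the 3 genes whose levels across the libraries were most alike (Npy2r, Gpr128 and Serpinb5). Each runs 5′ to 3′ on the strand of its gene from 250 bases before the RefSeq start to 50 bases after it, in build GRCm38.p6. Capitals mark matches to 1 of 11 searched motifs on either strand.
Npy2r, chr3:82548036-82548335, minus strand: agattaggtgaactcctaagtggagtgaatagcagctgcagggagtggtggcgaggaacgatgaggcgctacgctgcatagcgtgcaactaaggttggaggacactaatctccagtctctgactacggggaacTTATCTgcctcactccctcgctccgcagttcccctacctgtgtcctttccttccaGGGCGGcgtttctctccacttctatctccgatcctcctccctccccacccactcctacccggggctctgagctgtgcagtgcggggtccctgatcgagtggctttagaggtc
Gpr128, chr16:56795809-56796108, minus strand: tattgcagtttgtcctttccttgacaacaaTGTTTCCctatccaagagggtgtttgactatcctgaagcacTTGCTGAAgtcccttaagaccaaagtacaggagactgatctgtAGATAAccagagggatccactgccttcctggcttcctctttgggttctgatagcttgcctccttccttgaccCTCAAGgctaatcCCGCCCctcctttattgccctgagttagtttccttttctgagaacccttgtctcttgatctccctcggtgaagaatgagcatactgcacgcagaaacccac
Serpinb5, chr1:106860925-106861224, plus strand: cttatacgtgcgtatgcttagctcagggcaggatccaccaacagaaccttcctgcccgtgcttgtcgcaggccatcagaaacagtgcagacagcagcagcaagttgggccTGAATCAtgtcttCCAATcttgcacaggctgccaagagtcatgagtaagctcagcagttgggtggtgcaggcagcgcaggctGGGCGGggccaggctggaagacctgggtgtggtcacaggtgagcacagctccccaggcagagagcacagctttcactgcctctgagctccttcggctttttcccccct
Among core promoter motifs, the TATA box was searched as TATAAA, the GC box as the letters GGGCGG, and the CCAAT box as the 5 letters of its name. Among motifs of transcription factors, the AP-1 site was searched as the letters TGANTCA, where N is any base, and the CRE as TGACGTCA. The FOXA site was searched as TGTTTNC, while the C/EBP site was searched as TTGCNNAA. For NKX2-1 the letters were CTCAAG, while those for the ETS family were CCGGAA, and the GATA site was searched as AGATAA. The HNF4 site was searched as CAAAGTCCA.

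A GC box stood in the windows of Npy2r, Gpr128, Serpinb5 and Slc35f1, and 35.9% of all 32544 windows in the table hold one. The Npy2r window held besides it a GATA match, found in 11.2% of windows, and had 14 CG dinucleotides where the median window has 7. The Gpr128 window held FOXA, C/EBP, GATA, NKX2-1 and GC box matches, where 20.5%, 10.8%, 11.2%, 15.7% and 35.9% of all windows hold these motifs. The Serpinb5 window held a match to the searched AP-1 letters (7.79% of windows), a CCAAT box (37.4%) and a GC box. That AP-1 match reads TGAATCA, with A where the search took any base, and a stricter AP-1 pattern was not searched. The first RefSeq window of Tmem27 held a FOXA match only, and the second a C/EBP match only. The Slc35f1 window held 2 CCAAT boxes and a GC box with 14 CG dinucleotides, and that of E330017A01Rik an ETS and a FOXA match. A match is a description of the letters and not of binding.

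Counted reads per library were 58545354, 62336537 and 48509129 in the tumours and 38996532, 59037341 and 46025182 in control lung, so that 3 reads in 1 library correspond to 0.0456 to 0.0815 CPM. Of 20001 gene names tested with edgeR (quasi-likelihood test, 3 libraries per group), at an adjusted p under 0.05 by Benjamini and Hochberg, 42% changed, 18.1% being higher and 23.8% lower in tumours. Tumour replicate 2 stands apart in sex-linked genes, with 3360 CPM of Xist and 0.216 CPM of the Y-linked gene Kdm5d, while Xist did not exceed 32.9 CPM and Kdm5d was at 37.6 CPM or more in the other 5. Without that library 3402 genes were higher and 4761 lower, in place of 3627 and 4770. All 6 general epithelial markers, all 6 proliferation markers and 9 of 10 AT2 markers were higher in tumours, with median log2 fold changes of 2.27, 2.11 and 1.80 against 0.01 over all genes tested. The epithelial gene Cdh1 (adjusted p = 0.036) lost the call when any 1 library other than tumour replicate 1 was left out (adjusted p from 0.0597 to 0.118). Of the proliferation genes, Aurkb (adjusted p = 0.031) lost it without tumour replicate 1 or any 1 control library (adjusted p from 0.0526 to 0.101), and the AT2 gene Sftpc (adjusted p = 0.00952) lost it without control replicate 3 (adjusted p = 0.0563). The proliferation markers summed to 349, 138 and 142 CPM in tumour replicates 1, 2 and 4, against 60.6, 60.6 and 39.8 CPM in control lung, so replicate 1 had the highest sum. The AT2 markers summed to 28954, 65591 and 50388 CPM in the same tumours, against 16708, 11022 and 10095 CPM in control lung, and replicate 1 had the lowest sum of the 3 tumours. The part of these marker levels in the levels of the 6 genes was not tested.

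Of the 6 genes, 2 had no read in any control library and the other 4 had between 0 and 16 reads per control library, while every tumour library held between 361 and 23568 reads of each. In bulk tissue, fewer cells of a type and less RNA per cell cannot be told apart. No exon base of any of the 6 lies inside an exon of another name in the table, and 32-base words of their transcripts that also occur in another gene made up 0.329% in Slc35f1 and 0% in the other 5. Fold values are ratios of pooled reads per effective library size with exact binomial 95% intervals, or bounds against 3 reads over the control group where that group had none. They cover counting error only: mates of a pair were counted separately according to the header, and 64.8% of the gene values from 1 to 10 reads were even, so the intervals are narrower than independent molecules would give.

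**Figure D1:**
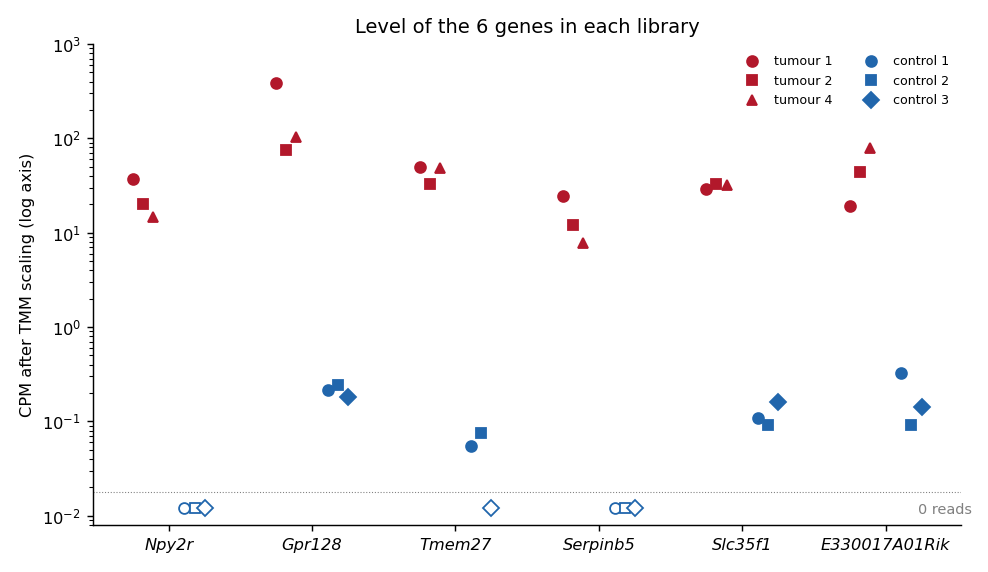
CPM after TMM scaling (vertical log axis) of the 6 genes in each library, with tumours in red left of controls in blue and open symbols for libraries with 0 reads. The lowest tumour value of any gene, 7.83 CPM of Serpinb5, lies above the highest control value, 0.326 CPM of E330017A01Rik.

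Npy2r (mm9, chr3:82342305-82352008, minus strand, 3366 exon bases) had 2271, 1113 and 669 reads in tumour replicates 1, 2 and 4 and no read in any control library. These reads gave 37.1, 19.99 and 14.5 CPM, a tumour mean of 23.9 ± 11.8 CPM (SD, n = 3). Every tumour held the receptor transcript at more than 10 CPM, tumour 1 the most, and the pooled level was at least 1259-fold higher in tumours, counting 3 reads over the control group. Without control replicate 2, the deepest control library, that bound was 718.

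The ligands and the other receptors of Npy2r did not accompany it. Npy and Pyy, which encode its ligands, and the receptor genes Npy5r and Npy6r had no read in any of the 6 libraries. Ppy, encoding pancreatic polypeptide, had no read in tumours and 12 in control lung, and Ppyr1, the receptor for that peptide, had 38 in tumours and 22 in control lung, too few to be tested. Npy1r, the receptor through which neuropeptide Y constricts vessels, had 0, 7 and 0 reads in tumours, against 127, 519 and 256 in control lung. It was lower in tumours with a log2 fold change of -6.93 ± 0.92 (SE; adjusted p = 0.000565), or 138-fold lower by pooled reads (66.8 to 345). All its tumour reads came from tumour replicate 2, without which the pooled level was at least 212-fold lower.

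All 6 tested genes of the 12 in the neuropeptide Y list passed the test, 2 higher and 4 lower in tumours, with a median log2 fold change of -1.14. That is 33.3% higher and 66.7% lower, against 18.1% and 23.8% over all genes tested. Dpp4, the peptidase that trims neuropeptide Y and peptide YY to forms that prefer the receptor encoded by Npy2r, averaged 355 ± 31.3 CPM in tumours and 177 ± 16.8 CPM in control lung (SD, n = 3 each; log2 fold change 1.00 ± 0.16, adjusted p = 0.00124). Among the genes of inhibitory G protein subunits, Gnao1 fell by 3.91 ± 0.23 on the log2 scale (adjusted p = 1.71e-05) and Gnai1 fell by 1.49 ± 0.15 (adjusted p = 0.000151). Gnai2 had 92.4 ± 18.5 CPM in tumours and 159 ± 23.8 CPM in control lung, and Gnai3 145 ± 13.7 and 95.5 ± 12.1 CPM. The call for Gnai2 (adjusted p = 0.0118) was lost without control replicate 3 (adjusted p = 0.0601), and that for Gnai3 (adjusted p = 0.0153) without tumour replicate 4 (adjusted p = 0.0543).

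Markers of the cells best known for Npy2r were at or near 0 in the tumours. Of 15 sensory neuron and neuroendocrine markers, 11 were under 0.1 CPM on average in tumours, and of the 6 tested 4 were lower and none higher by edgeR, nor by DESeq2 or at an unadjusted p under 0.05. The share lower by edgeR was 66.7%, against 23.8% over all genes tested. Without control replicate 2 the count lower was 1. Their summed level was 3.23 to 4.58 CPM in tumours, against 7.37 to 11.4 CPM in control lung. Slc17a6, a glutamate transporter of vagal sensory neurons, had no read in any tumour, and neither had Snap25, a gene of neurotransmitter release, which had 6, 12 and 11 reads in control lung. P2rx3, a purinergic channel of sensory nerves, was the highest of the list in tumours at 1.55 ± 0.645 CPM, against 1.16 ± 0.201 CPM in control lung, and did not pass (adjusted p = 0.422).

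Gpr128 (mm9, chr16:56724722-56795968, minus strand, 2698 exon bases) had 23568, 4148 and 4763 reads in tumours and 8, 16 and 9 in control lung. That is 385.3, 74.5 and 103 CPM in tumours, against 0.217, 0.243 and 0.183 CPM in control lung, with means of 188 ± 172 and 0.214 ± 0.0303 CPM (SD, n = 3 each). Its mean was the highest of the 6 also per exon base (69.6 RPKM, reads per kilobase of exon and library size, in tumours), but only through tumour 1. Per exon base it had 143, 27.6 and 38.3 RPKM in tumour replicates 1, 2 and 4, and E330017A01Rik 17.5, 39.9 and 71.7 RPKM, so that E330017A01Rik was above it in tumours 2 and 4. In CPM tumour 1 held more than 3 times as much as either other tumour. The pooled ratio was 917 (653 to 1333) with all libraries and 413 without tumour replicate 1.

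Most other adhesion G protein-coupled receptors were lower in the tumours. Of 29 in the list, 24 were tested, 2 were higher and 17 lower, with a median log2 fold change of -1.44. That is 8.33% higher and 70.8% lower, against 18.1% and 23.8% over all genes tested. Markers of endothelium and of leukocytes, where several of these receptors are known, were lower as well. All 8 endothelial markers were lower, with sums of 194 to 305 CPM in tumours against 2100 to 3119 CPM in control lung, and Pecam1 among them had 46.8, 67.3 and 42.0 CPM in tumours against 377, 629 and 488 CPM in control lung. Of 8 leukocyte markers 6 were lower and 2 did not pass, with sums of 136 to 409 CPM in tumours against 593 to 729 CPM in control lung, and Ptprc had 40.5, 124 and 114 CPM in tumours against 309, 362 and 269 CPM in control lung. The part of these cells in the receptor levels was not tested. The 2 higher receptors were Gpr56 (Adgrg1), a collagen receptor in the same subgroup G as Gpr128, at 203 ± 43.2 CPM in tumours and 53.7 ± 2.17 CPM in control lung (log2 fold change 1.92 ± 0.18, adjusted p = 0.000115), and Celsr1, a planar polarity cadherin, at 140 ± 26.1 and 43.8 ± 4.47 CPM (1.67 ± 0.18, adjusted p = 0.000187). Other members of subgroup G did not move with Gpr128. Gpr64 fell by 4.81 ± 0.35 on the log2 scale (adjusted p = 3.45e-05), and Gpr126 fell by 3.67 ± 0.52 (adjusted p = 0.000768), with a log2 fold change of -4.51 without tumour replicate 1. Gpr97 did not pass (adjusted p = 0.163), and Gpr112 had no tumour read. Among those lower with the smallest p, the leukocyte receptor Cd97 had 29.3 ± 8.87 CPM in tumours and 531 ± 77.4 CPM in control lung. The endothelial receptors Eltd1 and Gpr124 had log2 fold changes of -3.06 ± 0.20 and -3.07 ± 0.25, and Gpr98, the largest of the family, -4.77 ± 0.32.

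The intestinal genes that Gpr128 is known beside were not raised as a group. Of 12 enterocyte and gut markers, 6 were tested, 1 being higher and 1 lower, with a median log2 fold change of 0.04. That is 16.7% in each direction, near the 18.1% higher and 23.8% lower over all genes tested. The intestinal regulators Cdx1 and Cdx2 had no read in any library. Anpep, a brush border peptidase and the highest of the list, had 84.4 ± 34.3 CPM in tumours and 57.2 ± 11.1 CPM in control lung (adjusted p = 0.168), but was higher without tumour replicate 1 (adjusted p = 0.0104). Vil1, the brush border protein villin, had 23.4, 4.90 and 3.84 CPM in tumour replicates 1, 2 and 4, against 1.44, 1.82 and 1.24 CPM in control lung, a log2 fold change of 2.83 with all libraries (adjusted p = 0.0112) and 1.57 without tumour replicate 1. The call was lost without control replicate 3 (adjusted p = 0.0607).

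Tmem27 (mm9, chrX:160526762-160556792, plus strand, 1544 exon bases) had 3023, 1837 and 2230 reads in tumours and 2, 5 and 0 in control lung. The levels were 49.4, 33.0 and 48.4 CPM in tumours, against 0.0543, 0.0760 and 0 CPM in control lung, with a tumour mean of 43.6 ± 9.20 CPM (SD, n = 3). The pooled ratio was 944 (458 to 2349), and 1884 without control replicate 2, which holds 5 of the 7 control reads. The lowest of the tumours was replicate 2, the library with the high Xist level, and Tmem27 lies on the X chromosome. Without that library the tumour mean was 50.1 CPM and the highest over the lowest tumour 1.02. The part of sex in the level of Tmem27 was not tested.

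Genes that work with collectrin were higher in the tumours more often than lower. Of 13, 11 were tested, 5 were higher and 1 was lower (2 when any 1 tumour was left out), with a median log2 fold change of 0.16. That is 45.5% higher and 9.09% lower, against 18.1% and 23.8% over all genes tested. Slc6a19, the neutral amino acid transporter that collectrin brings to the membrane in kidney, had 127, 157 and 153 reads in tumours and 2, 0 and 0 in control lung. Its pooled ratio was 204 (56.0 to 1687; adjusted p = 0.000193), and without control replicate 1 it had no control read and was at least 103-fold higher. Its tumour level of 2.74 ± 0.626 CPM was low. The related transporters Slc6a18 and Slc7a9 had at most 4 reads in any library, and Slc6a20b did not pass (adjusted p = 0.66). Slc6a20a did not pass either (adjusted p = 0.131), having 0.654, 10.5 and 1.67 CPM in tumours, against 15.6, 14.3 and 12.7 CPM in control lung. Without tumour replicate 2 it was lower (adjusted p = 0.000406).

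Hnf4a, a nuclear receptor of kidney tubule and gut epithelia, had 1052, 79 and 65 reads in tumours and 0, 1 and 0 in control lung (adjusted p = 0.00216). Its pooled ratio was 1115 (199.7 to 44063) with all libraries and 220.4 without tumour replicate 1, and without control replicate 2 it was at least 212-fold higher. Slc3a1, partner of amino acid transporters of the brush border, was higher by 0.97 ± 0.23 on the log2 scale (adjusted p = 0.0104). Ace, a peptidase of endothelium, had 62.6 ± 11.5 CPM in tumours and 808 ± 157 CPM in control lung (log2 fold change -3.69 ± 0.24, adjusted p = 2.13e-05).

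Serpinb5 (mm9, chr1:108757750-108779925, plus strand, 2750 exon bases) had 1513, 667 and 361 reads in tumours and none in control lung. At 24.7, 11.98 and 7.83 CPM, with a mean of 14.9 ± 8.81 CPM (SD, n = 3), it was the least abundant of the 6 in tumours, also per exon base (5.40 RPKM). Tumour 1 was the highest and only tumour 4 was under 10 CPM. The pooled level was at least 789-fold higher in tumours, and at least 524-fold without tumour replicate 1 or 450.2-fold without control replicate 2.

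Other clade B serpins were lower in the tumours or did not pass. Of 26 listed, 10 were tested and 6 were lower (60%, against 23.8% over all genes tested), with a median log2 fold change of -1.31, and 9 had no read in any library. None was higher by edgeR or DESeq2, and 1, Serpinb12, was at an unadjusted p under 0.05. In the cluster next to Serpinb5 on chromosome 1, Serpinb13 and Serpinb3a to Serpinb3d had no read, Serpinb7 had 6 reads and Serpinb11 4, all in control lung. Serpinb12 had 25, 28 and 8 reads in tumours, against 0, 12 and 2 in control lung, and did not pass (adjusted p = 0.082), but did without control replicate 2 (adjusted p = 0.0279). Serpinb10-ps had 8 reads in tumours and 1412 in control lung, 189-fold lower by pooled reads (95.8 to 439.5; adjusted p = 1.39e-05). Serpinb2, a plasminogen activator inhibitor of macrophages in the same cluster, had 27 reads in tumours and 494 in control lung and was 19.6-fold lower (13.3 to 30.1; adjusted p = 0.00285), or 40.4-fold without tumour replicate 1. On another chromosome, Serpinb9, which blocks granzyme B, had 40.2 ± 8.38 CPM in tumours and 87.7 ± 14.4 CPM in control lung (adjusted p = 0.00246). Serpinb9b had 0.0542 ± 0.0110 CPM in tumours and 0.692 ± 0.228 CPM in control lung (adjusted p = 0.000661). Serpinb1b had 4 reads in tumours, all from replicate 2, and 124 in control lung (adjusted p = 0.00209), and without tumour replicate 2 its pooled level was at least 29.1-fold lower. The call for Serpinb1a (adjusted p = 0.0255) was lost without tumour replicate 4 or any 1 control library (adjusted p from 0.0612 to 0.0818).

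Serpinb5 is known from basal and squamous epithelium, and the markers of those cells were low in both groups. They summed to 3.56, 1.56 and 1.67 CPM in tumours, against 2.23, 1.79 and 1.71 CPM in control lung, and 7 of 10 were under 0.1 CPM on average in tumours. Krt5 had 2 tumour reads, Krt14 had 8, all from tumour replicate 1, and Dsg3 none. Krt6a had 15, 1 and 0 reads in tumour replicates 1, 2 and 4 and none in control lung. Dsc3 had 12, 0 and 0 reads in tumours, against 0, 2 and 0 in control lung. Krt13 and Ngfr ran the other way, with 0, 0 and 0 and 6, 9 and 8 reads in tumours. In control lung these had 12, 4 and 8 and 6, 31 and 26 reads. Of the 2 tested, Trp63, the basal cell regulator and highest of the list, had 2.13, 0.323 and 0.890 CPM in tumours, against 0.652, 0.547 and 0.528 CPM in control lung (adjusted p = 0.254), but passed without tumour replicate 2 (adjusted p = 0.0452), and Aqp3 did not pass either.

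Slc35f1 (mm9, chr10:52410339-52831428, plus strand, 4941 exon bases) had 1791, 1810 and 1470 reads in tumours and 4, 6 and 8 in control lung. It reached 29.3, 32.5 and 31.9 CPM in tumours, against 0.109, 0.0912 and 0.162 CPM in control lung, means of 31.2 ± 1.71 and 0.121 ± 0.0371 CPM (SD, n = 3 each). The 3 tumours held almost the same level, and the pooled ratio was 263 (166 to 443).

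Other SLC35 genes changed about as often as genes at large. Of 26, 25 were tested, 7 were higher and 3 lower, 40% in all against 42% over all genes tested. By direction, 28% were higher and 12% lower, against 18.1% and 23.8% over all genes tested. Their median log2 fold change was 0.24, against 0.01 over all genes tested. The count higher fell to 3 without tumour replicate 2 or control replicate 1 and to 4 without control replicate 3. Slc35b2, Slc35b3, Slc35f5 and Tmem20 (Slc35g1) each lost the call without tumour replicate 2 (adjusted p from 0.0512 to 0.0958) and without control replicate 1 (adjusted p from 0.0534 to 0.135). Slc35c1, the Golgi carrier of GDP-fucose, had 25.9 ± 4.12 CPM in tumours and 11.8 ± 0.960 CPM in control lung (log2 fold change 1.14 ± 0.18, adjusted p = 0.00126). Slc35a3, a carrier of UDP-N-acetylglucosamine, was higher by 0.70 ± 0.14 (adjusted p = 0.00472) and Slc35d1 by 0.78 ± 0.16 (adjusted p = 0.00442), while Slc35e3 fell by 1.00 ± 0.18 (adjusted p = 0.00307). Within the F subfamily, Slc35f2 was at 0.249 ± 0.141 CPM in tumours and 0.402 ± 0.116 CPM in control lung and did not pass (adjusted p = 0.325), and Slc35f4 had 4 reads in tumours and 6 in control lung. Slc35f3 had 14 reads in tumours and 246 in control lung, 18.9-fold lower (11.02 to 35.0; adjusted p = 0.00226), or 40.2-fold without tumour replicate 1. Slc35f5 was higher by 0.61 ± 0.16 (adjusted p = 0.0158), a call lost without tumour replicate 2 (adjusted p = 0.0562) or control replicate 1 (adjusted p = 0.0601).

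E330017A01Rik (mm9, chr16:58635280-58638852, minus strand, 1108 exon bases) had 1184, 2462 and 3663 reads in tumours and 12, 6 and 7 in control lung. That is 19.4, 44.2 and 79.5 CPM in tumours, against 0.326, 0.0912 and 0.142 CPM in control lung, means of 47.7 ± 30.2 and 0.186 ± 0.124 CPM (SD, n = 3 each). Tumour 4 was the highest here and tumour 1 the lowest, and the pooled ratio was 272 (184 to 421). Per exon base its mean of 43.0 RPKM in tumours was second of the 6, while in tumours 2 and 4 it was the highest of them.

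None of the other 5 ferritin genes was higher by edgeR or DESeq2, or at an unadjusted p under 0.05, and only 2 had reads enough to be tested. Gm813, named Ftdc1 in RefSeq and next to E330017A01Rik on the same strand at 18.2 kb, had 4 reads in tumours and none in control lung. Ftmt, encoding mitochondrial ferritin, had no read, and Ftl2 had 2 reads in tumours and 1 in control lung. The ferritin heavy chain gene Fth1 had 457 ± 169 CPM in tumours and 606 ± 41.7 CPM in control lung and did not pass (adjusted p = 0.283). The light chain gene Ftl1 fell by 0.69 ± 0.23 on the log2 scale (adjusted p = 0.0438), a call that was lost when any 1 library other than tumour replicate 2 was left out (adjusted p from 0.0589 to 0.144).

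**Figure D2:**
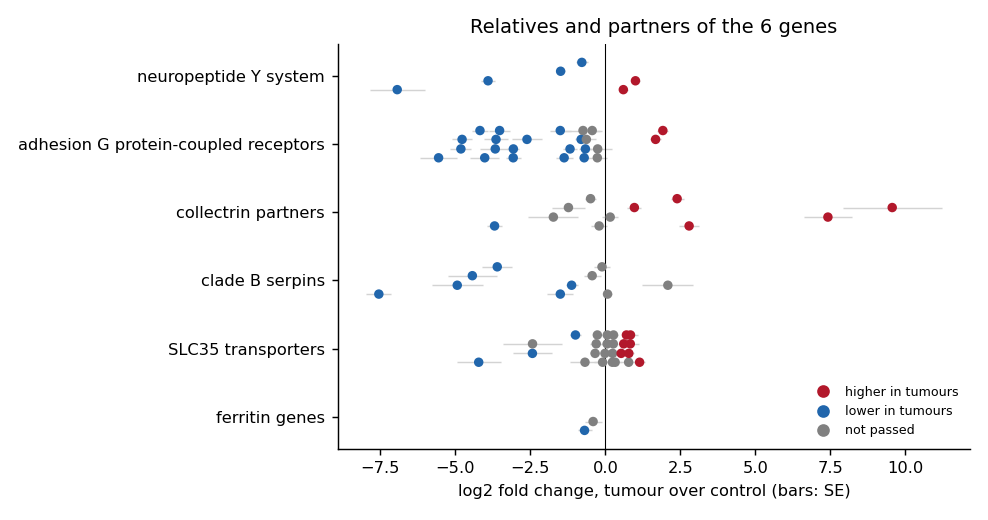
Log2 fold change of tumours over control lung (horizontal axis, bars are SE) for the tested genes of 6 lists of relatives and partners of the 6 genes, 1 point per gene. Of 78 tested, 16 were higher (red), 32 lower (blue) and 30 did not pass (grey). The 2 points farthest right are Hnf4a and Slc6a19, whose fitted values rest on 1 and 2 control reads.

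Over the 6 lists together, 78 of 111 genes were tested. Higher in tumours were 20.5% of them and lower 41.0%, where the test called 18.1% and 23.8% of all genes, and their median log2 fold change was -0.47 against 0.01 over all genes tested.

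The spread between the 3 tumours differed widely among the 6 genes. The coefficient of variation was 91.5% for Gpr128, 63.4% for E330017A01Rik, 59.3% for Serpinb5, 49.4% for Npy2r, 21.1% for Tmem27 and 5.49% for Slc35f1. The median over the 9467 genes with a tumour mean of at least 10 CPM was 15.7%. Gpr128 varied more than 99.5% of those genes, E330017A01Rik more than 98.1%, Serpinb5 more than 97.5%, Npy2r more than 94.9%, Tmem27 more than 65.6% and Slc35f1 more than 10.4%. The highest over the lowest tumour was 5.17 for Gpr128, 4.11 for E330017A01Rik, 3.16 for Serpinb5, 2.56 for Npy2r, 1.498 for Tmem27 and 1.11 for Slc35f1, against a median of 1.35.

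Single tumours set much of that spread. Tumour 1 was the highest for Npy2r, Gpr128, Tmem27 and Serpinb5, tumour 2 for Slc35f1 and tumour 4 for E330017A01Rik. Over the 9467 genes, tumour 1 was the highest in 43.2%, tumour 2 in 30.2% and tumour 4 in 26.6%. Without tumour replicate 1, the highest over the lowest was 1.39 for Npy2r, 1.37 for Gpr128, 1.54 for Serpinb5 and 1.78 for E330017A01Rik, and without tumour replicate 4 it was 2.06 for Serpinb5 and 2.29 for E330017A01Rik.

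Tumour 1 also stood apart in some epithelial genes and in proliferation genes. Epcam, an epithelial adhesion gene, had 228, 125 and 151 CPM in tumour replicates 1, 2 and 4, Krt18 had 484, 184 and 140 CPM, and Mki67, a gene of cycling cells, had 187, 80.9 and 77.7 CPM. Cdh1, the epithelial cadherin, ran the other way at 227, 424 and 348 CPM. Esrp1, another of the epithelial markers, was more even at 125, 104 and 111 CPM. Sftpc, which encodes surfactant protein C, had 9986, 25433 and 19075 CPM. Per 100 reads of Epcam, Npy2r had 16.3, 16.0 and 9.62 reads, Gpr128 169, 59.8 and 68.5, and Serpinb5 10.9, 9.62 and 5.19. On that scale Npy2r and Serpinb5 were close in tumours 1 and 2, while Gpr128 remained highest in tumour 1 and E330017A01Rik, at 8.50, 35.5 and 52.7, lowest there. Tmem27 had 21.7, 26.5 and 32.1 and Slc35f1 12.9, 26.1 and 21.1, so both were then lowest in tumour 1. This scale rests on Epcam alone, and the order of the tumours can differ on a more even gene such as Esrp1. The part of these markers in the spread was not tested.

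**Figure D3:**
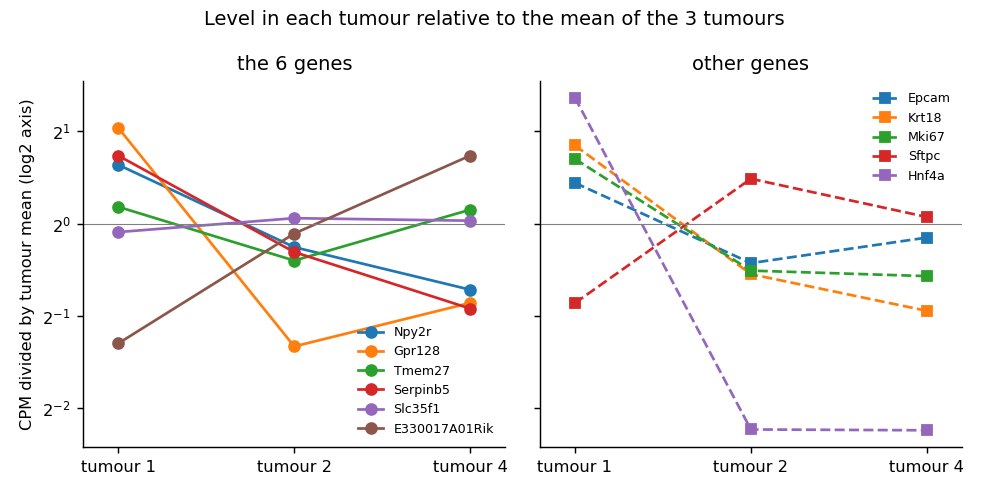
Level in each of the 3 tumours divided by the mean of the 3 (vertical log2 axis), for the 6 genes on the left and for Epcam, Krt18, Mki67, Sftpc and Hnf4a on the right. Gpr128 stands at 2.05 in tumour 1 and E330017A01Rik at 0.406, while Slc35f1 keeps between 0.938 and 1.04.

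The pattern over the 6 libraries was compared by the root mean square difference of log2 CPM (prior count 2) after centring each gene, among 14686 tested genes with a proper symbol. Since tumours and controls differ widely in the 6 genes, the size of that gap enters the measure along with the order of the tumours. The 6 genes were chosen for that gap, so nearness among them is set in part by the choice. Among the genes compared, the nearest to Npy2r was Serpinb5, at 0.38, followed by Gpr128 at 0.44. Raet1d, a ligand of the NKG2D receptor, came next at 0.48, though its order in the tumours was the opposite. It had 32.8, 35.3 and 38.6 CPM in tumour replicates 1, 2 and 4, where Npy2r had 37.1, 19.99 and 14.5 CPM. Serpinb5 was in turn nearest to Npy2r, then to Cldn2, a claudin of leaky epithelia, at 0.52 and Sox9, a regulator of the embryonic lung tip, at 0.53. Gpr128 was nearest to Npy2r, Serpinb5 (0.55) and Tmem27 (0.72), and Tmem27 to Raet1d (0.60), Cldn2 (0.61) and Npy2r (0.63).

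Slc35f1 and E330017A01Rik had other neighbours in pattern. The genes nearest to Slc35f1 were Meg3 (0.18), Rian (0.38) and Rtl1 (0.38), which lie together on chromosome 12 in the imprinted Dlk1 to Dio3 region. Meg3 had 1347, 1418 and 1735 CPM in tumours and a mean of 6.61 CPM in control lung, Rian means of 1452 and 6.91 CPM, and Rtl1 means of 130 and 0.915 CPM. The gene nearest to E330017A01Rik was Kng2, a kininogen gene also on chromosome 16, at 0.61, with 16.1, 39.8 and 80.2 CPM in tumours and a mean of 0.447 CPM in control lung, so that it too was lowest in tumour 1 and highest in tumour 4. Rtl1 (0.70) and Slc35f1 (0.72) came next.

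The flanking genes of the 6 did not move with them as a group. The 36 nearest names were taken, 3 on each side, by distance from their exons to the span of the gene. Of these, 27 were tested, 8 were higher and 9 lower in tumours (29.6% and 33.3%, against 18.1% and 23.8% over all genes tested), with a median log2 fold change of 0.23. That is 63.0% called in either direction, a larger share than the 42% over all genes tested, and the difference in share was not tested. The table joins all copies of 7SK and of U6 under 1 name each, so these 2 do not measure the copy beside Npy2r or the copy inside the span of Slc35f1.

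Inside the span of Gpr128, on the opposite strand, lies Gm15693, with 524, 64 and 95 reads in tumours and none in control lung, at least 212-fold higher by pooled reads (adjusted p = 0.00261). Leaving out tumour replicate 1 gave a bound of 81.1, and leaving out control replicate 2 a bound of 121. It followed Gpr128 in being highest in tumour 1, but strand was not used in counting, so its reads and unspliced reads of Gpr128 cannot be told apart. Tfg, 7.16 kb from Gpr128, was higher by 0.71 ± 0.15 on the log2 scale (adjusted p = 0.00642), and Tmem45a, at 9.31 kb, and Abi3bp, at 34.5 kb, were lower, at -2.49 ± 0.33 and -1.48 ± 0.23 (adjusted p = 0.000583 and 0.00123).

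Beside Tmem27, Car5b at 60.8 kb fell by 1.22 ± 0.32 (adjusted p = 0.0172). The call for Car5b was lost without control replicate 1 (adjusted p = 0.0622) or control replicate 2 (adjusted p = 0.0615). Siah1b and Zrsr2 did not pass. Bmx had 35.4, 5.62 and 9.94 CPM in tumours, against 15.0, 20.96 and 16.9 CPM in control lung, and did not pass (adjusted p = 0.951), but was lower without tumour replicate 1 (adjusted p = 0.0065).

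Next to E330017A01Rik, Cpox, an enzyme of haem synthesis at 31.5 kb, had 68.6, 87.6 and 138 CPM in tumours, against 12.6, 11.8 and 10.4 CPM in control lung (log2 fold change 3.08 ± 0.27, adjusted p = 7.68e-05). Like E330017A01Rik it was lowest in tumour 1 and highest in tumour 4. St3gal6, a sialyltransferase at 111 kb, had 155 ± 15.5 CPM in tumours and 60.7 ± 1.25 CPM in control lung (log2 fold change 1.35 ± 0.14, adjusted p = 0.00016), and Dcbld2, Gpr15 and Cldn25 did not pass.

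Around Npy2r, the guanylate cyclase subunit genes Gucy1a3 and Gucy1b3, at 393 and 464 kb, were lower, at -2.96 ± 0.31 and -3.44 ± 0.22 on the log2 scale (adjusted p = 0.000161 and 2.07e-05), Rbm46 fell by 3.66 ± 0.48 (adjusted p = 0.00051), and Mtap9 was higher by 1.36 ± 0.19 (adjusted p = 0.000682). Around Serpinb5, Kdsr was higher by 0.78 ± 0.13 (adjusted p = 0.00192), Bcl2, the inhibitor of apoptosis, fell by 1.06 ± 0.15 (adjusted p = 0.000686), and Vps4b did not pass. Around Slc35f1, Nus1 was higher by 0.95 ± 0.14 (adjusted p = 0.00083), while Gm9766 and Pln, encoding phospholamban, were lower, at -1.54 ± 0.18 and -2.41 ± 0.40 (adjusted p = 0.000317 and 0.00175).

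**Figure D4:**
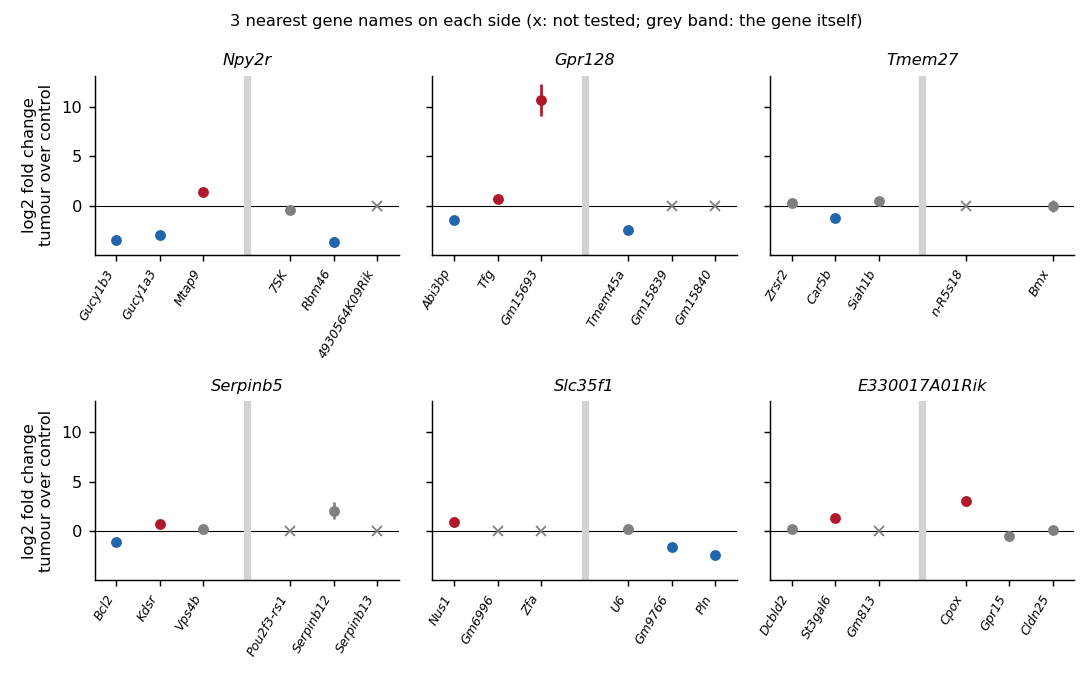
Log2 fold change of tumours over control lung (vertical axis, bars are SE) for the 3 nearest names on each side of each of the 6 genes, in order along the chromosome, with red for higher, blue for lower, grey for not passed and crosses for names not tested. Of 27 tested, 8 were higher and 9 lower, and 1 of the higher ones is not drawn. The fitted value of Gm15693 beside Gpr128 rests on 0 control reads and is no bound.

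The limits behind the choice of the 6 genes take in others too. With a tumour mean of at least 10 CPM and a pooled control level no higher than that of Gpr128 (0.217 CPM, the highest of the 6), 16 names remained, the 6 genes and 10 others. Serpinb5 at 14.9 CPM was the lowest of the 6 in tumours, and the names just under the tumour limit were Cyp2c40 (8.80 CPM), AC152063.2 (8.43 CPM) and Rhbdl2 (8.21 CPM). Just above the control limit were Habp2 at 0.224, Alb at 0.263 and Dlk1 at 0.29 CPM, with tumour means of 17.8, 19.5 and 690.2 CPM. Of the 16 names, 4 had no control read: Npy2r, Serpinb5, the stomach gene Gkn2 and Dcpp1.

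**Figure D5:**
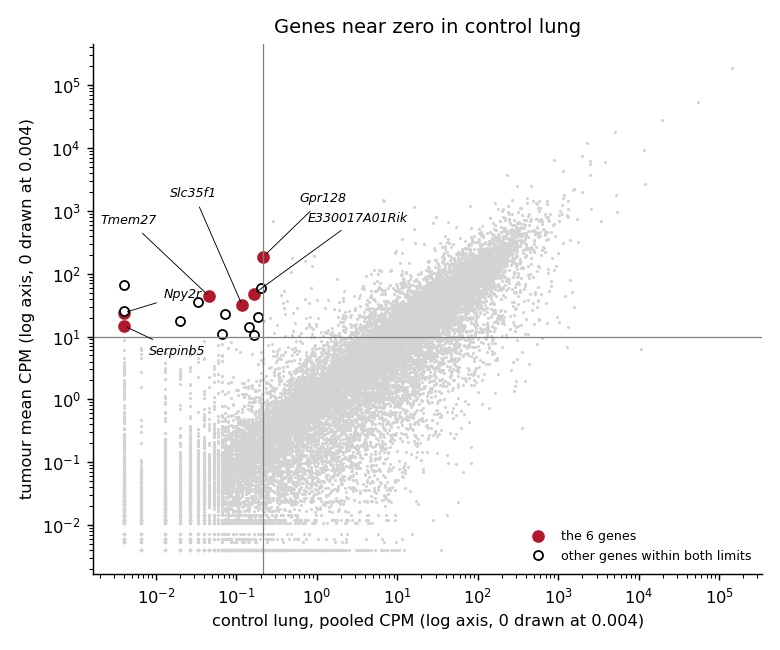
Tumour mean CPM (vertical log axis) against pooled control CPM (horizontal log axis) of every name with a read, with the limits of 10 and 0.217 CPM as lines. The 6 genes (red) and 10 others (open circles) are the 16 names in the upper left field.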

How the data were processed

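RNA from tumours and control lung was sequenced by the submitters after Trizol extraction and column clean-up, with Illumina library protocols, per the labels' protocols. As deposited, the table gives whole-number counts of reads for each gene name. The authors made them with featureCounts 1.6.5 over GENCODE vM1 exons grouped by name, per the file headers. Per the same headers strand was not used, mates were counted as single reads, and a read over several names counted for each. STAR, edgeR, limma and R 3.6.0 appear in the submitters' processing notes, as do the builds mm9 and GRCm38. Coordinates in the table fit mm9, and those of the promoter windows are of GRCm38.p6. Further alignment details are not given in the sources used here.

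Genes were tested across the whole table with edgeR 4.0.16 (R 4.3.3): filterByExpr with a minimum count of 10 (20001 of 33924 names kept), TMM scaling, and the quasi-likelihood test between the groups without covariates, with p-values adjusted by Benjamini and Hochberg. Standard errors came from the F statistic. CPM and RPKM use TMM effective library sizes, and RPKM the exon bases in the table. Every call in the text uses an adjusted p under 0.05 from this test. Mitochondrial genes and ribosomal RNA took 18.8% to 26.7% of the counts. Each sample column was matched to a library through its name. Libraries of the same group differed beyond sampling noise and were all kept.

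The 6 genes, the 12 gene lists and the motifs were chosen with earlier results of these data known, and the endothelial and leukocyte markers were added after the data were seen. Of 171 list entries, 137 matched by name and 34 by an older name. Genes were named by a rule: the 6 genes, the other names within both limits and the 3 nearest outside each, in each list of relatives and among the flanking genes the 5 with the smallest p plus ligands, partners and nearest relatives, 3 genes most alike in pattern to each of the 6, and the highest marker of each marker list; further genes were named after their values were seen. A few genes within the rule are not reported here. Gene names and promoter windows are from RefSeq, and all 6 genes matched, 3 of them under another symbol there. The shared 32-base words came from GENCODE M21 transcripts. The test was tested on simulated data. Alternatives were DESeq2 1.42.0, other scalings and filters, each library left out and a replicate block.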

Additional observations from a re-analysis of the deposited data

How the results depend on the processing

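With DESeq2 scaling, with the total library size or with mitochondrial genes and ribosomal RNA left out, the levels of the 6 genes moved by less than the SD between tumours, except that leaving out those abundant transcripts put Tmem27 at 57.5 CPM and Slc35f1 at 41.2 CPM in tumours. A tumour limit of 5 CPM took in 35 names in place of 16. DESeq2's size factors and Wald test and the test without a filter kept the counts of calls over all genes, the relatives and the flanking genes within 1.5 times. Replicate numbers 1 and 2 occur in both groups, but the libraries share only a number (correlation of deviations -0.18 and -0.0086). A replicate block was fitted to all 6 libraries, with only those 4 bearing on the difference between groups. It left fewer residual degrees of freedom than the 4 of the main test. With it 1092 genes were called higher and 2549 lower, with 7 relatives higher and 18 lower and 5 flanking genes higher. The direction of every call for a relative or flanking gene stayed as it was under all settings run. Leaving out 1 library at a time, the fold ranged from 718 to 1475 for Npy2r, 413 to 1220 for Gpr128, 654 to 1884 for Tmem27 and 450.2 to 950.4 for Serpinb5. The highest over the lowest tumour then ranged from 1.39 to 2.58 for Npy2r, 1.37 to 5.17 for Gpr128, 1.54 to 3.19 for Serpinb5 and 1.78 to 4.11 for E330017A01Rik. Bounds against 0 control reads grow with control depth, so depth limits the folds of Npy2r and Serpinb5.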

Other observations

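The 10 other names within both limits ranged from nearly even across the tumours to almost confined to 1 of them. Gkn2, a gene of the stomach lining, had 152, 39.5 and 7.98 CPM in tumour replicates 1, 2 and 4 and no read in control lung. Dcpp1 and Dcpp2, neighbouring genes of salivary secretion with near-identical copies that can share reads, had 75.4 and 52.4 CPM in tumour 1 and at most 0.216 CPM in the other two tumours. Ereg, the growth factor epiregulin, had 11.0034, 20.9 and 29.0 CPM in tumour replicates 1, 2 and 4, so that like E330017A01Rik it was lowest in tumour 1 and highest in tumour 4. Raet1d and Raet1c, stress ligands of the NKG2D receptor that also resemble each other in sequence, varied little, with 32.8, 35.3 and 38.6 CPM and 23.9, 21.1 and 22.7 CPM. Sox9 had 83.1, 40.4 and 52.1 CPM. Mfi2, encoding melanotransferrin, had 10.04, 9.39 and 13.7 CPM, and Tmem213 had 10.02, 12.99 and 9.29 CPM.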
